A study of Mus musculus with 6 samples.

Results

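The Rab genes encode small GTPases that direct membrane traffic, and their transcripts were compared between islets of Sec16b knockout and wild type mice. Members were all rows of the deposited table whose symbol is Rab followed by digits and at most 1 lower-case letter, which leaves out Rab-interacting proteins, pseudogenes and antisense genes. The rule found 55 of 18437 genes, and all 55 passed the filter on low values, which kept 16042 genes. GENCODE M21 lists 59 mouse genes of this form, and the other 4, Rab33a, Rab38, Rab42 and Rab44, were not analysed here. RNA came from isolated pancreatic islets of male mice aged 30 weeks, 3 libraries from Sec16b+/+ mice (wild type) and 3 from Sec16b-/- mice (knockout). The labels name no other allele, agent or strain and do not describe how Sec16b was disrupted. They also leave unsaid whether the 3 libraries of a genotype are 3 animals, so the p-values cover the spread between these samples, which may be technical.

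A Rab protein cycles between a GTP-bound form, which sits in a membrane and recruits effectors such as tethers and motors, and a GDP-bound form, which is extracted into the cytosol. Exchange factors load GTP, GTPase-activating proteins end the active state, and a lipid anchor added by geranylgeranyl transferase holds the protein in its membrane. Each Rab marks particular compartments, and in islet cells the Rab3 and Rab27 proteins are known for docking hormone granules at the plasma membrane. Sec16b encodes a protein of the sites where cargo leaves the endoplasmic reticulum (ER), and Rab1 acts on the vesicles that leave there.

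Recovered read totals lay between 22071895 and 26806787 per library, and Rab genes together took 0.341% to 0.43% of them. Sec16b itself, the targeted gene, stood at 1655, 773 and 1786 normalised reads in the wild type libraries (replicates 1, 2 and 3, the order used throughout). The knockout libraries, in the same order, held 553, 433 and 749.5, so every knockout value was below every wild type value and the transcript was present in all libraries. Its log2 fold change was −1.22 (SE 0.35), with an adjusted p of 0.993 by limma with Benjamini-Hochberg adjustment. Islet markers were abundant, with 11 genes of beta cells together taking 9.46% to 15.3% of reads. Genes of the exocrine acinar cells, 23 of 23 detected and none at 0, took 1.23% to 5.67% of reads in wild type and 0.769% to 17.2% in knockout libraries. Knockout replicate 1 held the highest acinar share and knockout replicate 3 the lowest. Lymphocyte markers, 6 detected, took 0.00106% to 0.0960% of reads in wild type and 0.0324% to 0.531% in knockout libraries. In bulk samples, fewer cells of a type and less RNA per cell cannot be told apart.

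No Rab gene differed between the genotypes at an adjusted p under 0.05 (limma over 16042 genes, lowest adjusted p among Rab genes 0.993). The same was true of the whole table, where 0% of genes were called. At an unadjusted p under 0.05 there was 1 Rab gene, Rab3d, which was lower in knockout libraries. That is 1.82% of the family, against 3.08% of all genes, or 1.36% counting only lower ones. By edgeR and by DESeq2 on the recovered reads the number of Rab genes called was also 0. At an unadjusted p under 0.05 edgeR found 1, which was higher in knockout libraries (1.82%, against 3.17% of all genes), and DESeq2 found 2, both lower (3.64%, against 3.59%). Over the whole table edgeR called 0 genes and DESeq2 called 13. In simulated counts DESeq2 called more unchanged genes than the other tools did. On the log2(value + 1) scale, which understates the change of low genes, the median size of a Rab fold change was 0.13, against 0.14 for all genes. Knockout values were lower on average for 35 of 55 Rab genes, or 63.6%, where 50.6% of all genes were lower, and the median log2 fold change was −0.050 against −0.0030. Abundant genes as a whole leaned the same way. Among genes with a mean of at least 1000 normalised reads, 18 of 26 Rab genes were lower, against 64.6% of all 4800 such genes, with medians of −0.056 and −0.050. With libraries scaled to equal totals, 42 of 55 Rab genes and 62.6% of all genes were lower, with medians of −0.12 and −0.074. Over all the alternative settings and with each library left out in turn, the sign of the log2 fold change differed from that given here at least once for 26 of the 55 Rab genes. With equal totals alone it differed for 7.

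**Figure D1:**
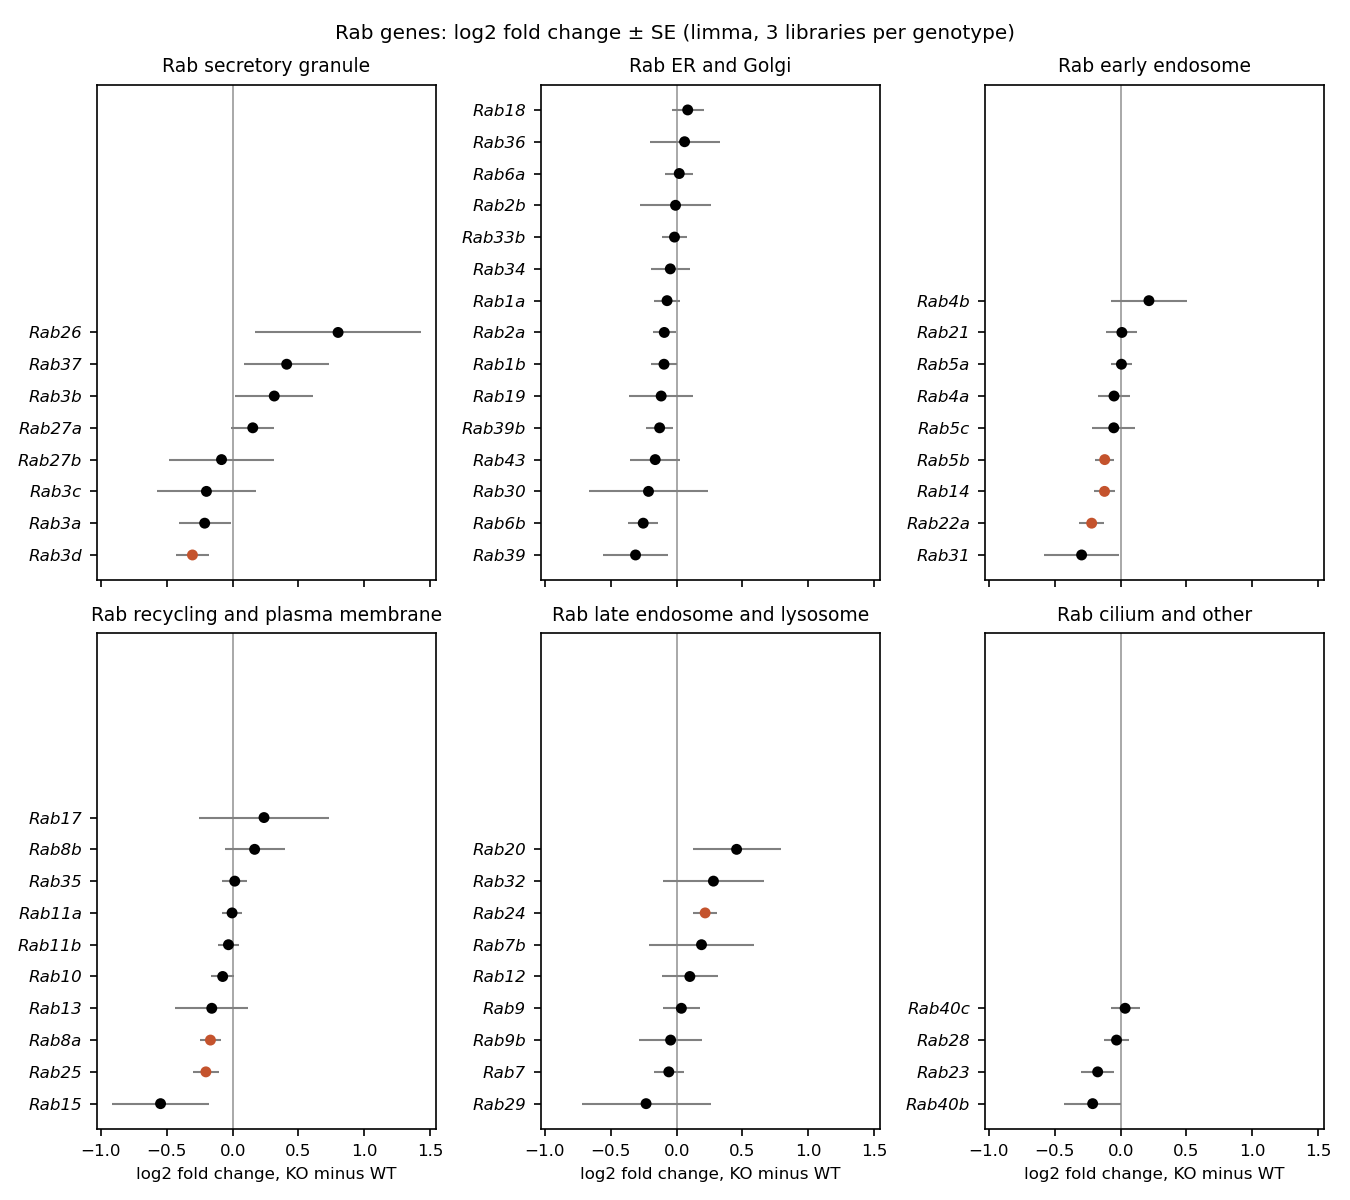
Log2 fold change (knockout minus wild type, horizontal axis) with its SE for each of the 55 Rab genes, in 6 panels by the role of the protein, with orange points for the 7 genes whose genotypes did not overlap. Rab26, at 0.80 with an SE of 0.63, lies farthest from 0, and the other points lie between −0.55 and 0.46.

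In 7 Rab genes the 3 knockout values lay all on one side of the 3 wild type values, which is 12.7% of the family against 9.08% of all genes. Of these, 6 were lower in knockout libraries (10.9%, against 5.22% of all genes) and 1 was higher (1.82%, against 3.85%). Among genes with a mean of at least 1000, where 9.29% of genes were lower without overlap, they were 5 of 26. With 1 library left out, which makes separation easier for every gene, 10 to 14 Rab genes were separated. The share was then 18.2% to 25.5% of the family and 15.7% to 25.1% of all genes.

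Rab3d, a protein of secretory granules, was measured at 5836, 5632 and 7364 normalised reads in wild type libraries, against 5404, 4753 and 4992 in the knockouts. Wild type replicate 3 was the highest of the 6, and the gap between the genotypes was narrow, from 5404 to 5632. The wild type mean was 6277 ± 947 and the knockout mean 5049.7 ± 329 (SD, n = 3 each). This gave a log2 fold change of −0.31 (SE 0.13), and without wild type replicate 3 it was −0.19. Rab22a, which acts between early and recycling endosomes, was at 3783, 4450.3 and 4148 in wild type against 3704, 3425 and 3483 in knockout libraries, with a log2 fold change of −0.22 (SE 0.093). Here wild type replicate 1 lay just above knockout replicate 1. Rab24, linked to autophagy, was the one gene of the family with every knockout value higher. It was at 866, 811 and 935 in wild type against 1009.8, 1003 and 1018 in knockout libraries, whose spread was small, and the log2 fold change was 0.22 (SE 0.092). In GENCODE M21, 62.4% of the exon bases of Rab24 also belong to Prelid1 on the opposite strand, and the strand setting of the counting is not given, so reads of the pair cannot be told apart. Prelid1 was at 2405, 2014 and 1875.5 in wild type against 2263, 1936 and 1689 in knockout libraries, which overlapped, and its part in the Rab24 values was not tested.

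Rab8a, which carries vesicles from the Golgi and recycling endosomes to the plasma membrane, was at 2011, 2039 and 1948 in wild type against 1802, 1697 and 1838 in knockout libraries, and the log2 fold change was −0.17 (SE 0.078). Rab25, an epithelial relative of Rab11, was at 821, 753 and 803 in wild type against 634, 699 and 734 in knockout libraries, and the log2 fold change was −0.20 (SE 0.10). Both sets were tight, and the nearest values of the 2 genotypes were 1948 and 1838 for Rab8a and 753 and 734 for Rab25. Rab5b, one of 3 copies of the Rab5 protein of early endosome fusion, was at 2524, 2434 and 2435 in wild type against 2319, 2222 and 2257 in knockout libraries (log2 fold change −0.12, SE 0.074). Rab14, which acts between endosomes and the Golgi, was at 4722, 4973 and 4745 in wild type against 4297, 4371 and 4599.7 in knockout libraries (log2 fold change −0.12, SE 0.080). The 95% interval of the log2 fold change ran from −0.30 to 0.055 for Rab5b and from −0.31 to 0.067 for Rab14. Rab25 is known from epithelia such as ducts. The 8 duct marker genes, none at 0, had mean log2 levels of 9.47, 10.04 and 9.20 in wild type libraries. The knockout libraries were at 10.3, 9.75 and 9.75, which overlapped the wild type levels. Single duct markers went both ways, with log2 fold changes from −0.17 for Krt7 to 1.03 for Sox9. The part of duct RNA in the Rab25 values was not tested.

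**Figure D2:**
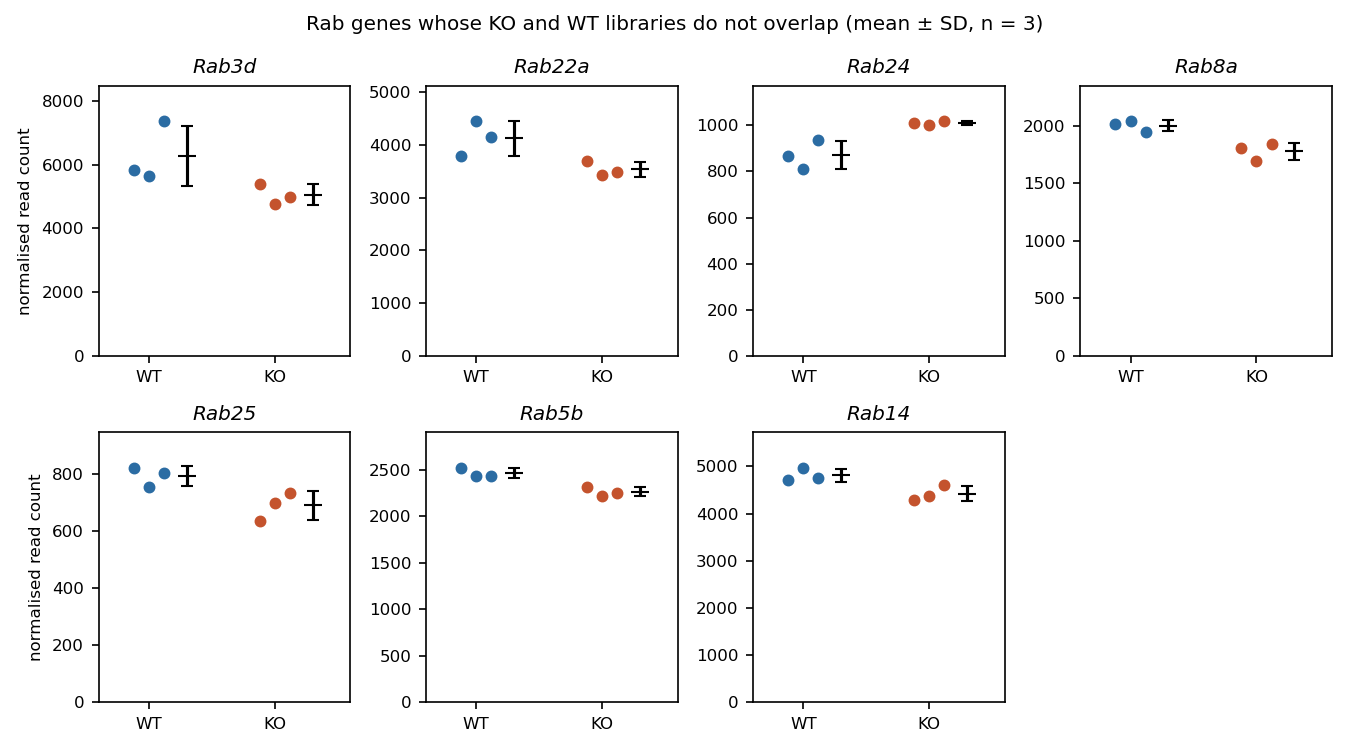
Normalised read counts (vertical axes, from 0) of the 7 Rab genes without overlap between the genotypes, with 1 point per library and the mean ± SD (n = 3) beside it. Rab24 is higher in every knockout library and the other 6 are lower, by a small part of their level.

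To show what lies before these genes, the sequence just upstream of the RefSeq start is given for the member with the smallest p (Rab3d) and for the lower genes Rab8a and Rab25. That of Rab24 is not shown, because its window lies within the first exon of Prelid1. The sequences come from RefSeq on build GRCm38.p6, on the strand of the gene, and bases that GENCODE M21 places inside the gene were removed. The authors' build is not given in the sources used here. Capitals mark matches to the searched motifs, which here are the GC box GGGCGG (or CCGCCC) in Rab3d, the CCAAT box (CCAAT or ATTGG) in Rab8a and the cAMP response element TGACGTCA in Rab25. Rab3d is at chr9:21918193-21918433 on the minus strand, Rab8a at chr8:72160950-72161199 on the plus strand and Rab25 at chr3:88548301-88548529 on the minus strand.
Rab3d: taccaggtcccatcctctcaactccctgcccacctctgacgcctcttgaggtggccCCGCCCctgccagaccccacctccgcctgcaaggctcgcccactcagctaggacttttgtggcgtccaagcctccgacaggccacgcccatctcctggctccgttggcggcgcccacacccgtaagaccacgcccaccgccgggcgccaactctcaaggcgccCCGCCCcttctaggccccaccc
Rab8a: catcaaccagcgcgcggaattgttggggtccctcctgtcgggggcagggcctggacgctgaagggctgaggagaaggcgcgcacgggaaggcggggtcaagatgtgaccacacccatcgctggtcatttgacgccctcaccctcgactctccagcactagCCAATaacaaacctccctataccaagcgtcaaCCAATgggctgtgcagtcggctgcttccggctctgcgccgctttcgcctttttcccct
Rab25: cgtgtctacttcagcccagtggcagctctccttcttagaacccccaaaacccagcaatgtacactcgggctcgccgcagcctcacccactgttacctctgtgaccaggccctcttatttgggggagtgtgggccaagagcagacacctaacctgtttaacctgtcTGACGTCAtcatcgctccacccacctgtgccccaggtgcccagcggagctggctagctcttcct

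RefSeq windows were found for 46 of 55 Rab genes, 58 windows in all, and the 250 bases before each start were searched on both strands. The GC box stood in 39 of the 58 windows, or 67.2%, against 32.7% of 32851 windows of all genes. Those 39 windows belong to 35 Rab genes, and overlapping windows of 1 gene, as for Rab43, repeat the same matches. The windows of all genes were not limited to genes that passed the filter on low values, which every Rab gene did. The CCAAT box stood in 24 windows (41.4%, against 33.9%). TGACGTCA stood in 2 Rab windows (3.45%, against 1.55% of all windows), those of Rab25 and Rab5a, and the values of Rab5a overlapped between the genotypes. The E-box CACGTG was in 5 Rab windows (8.62%, against 6.02%), those of Rab20, Rab21, Rab23, Rab27a and Rab5a. CATATG, the form of E-box bound by the acinar factor Mist1, was in 1 (1.72%, against 3.46%), that of Rab27a. The unfolded protein response motif TGACGTGG and the ER stress response element matched 0 Rab windows, against 0.563% and 0.113% of all windows. CCAAT is also the first part of the ER stress response element, and TGACGTCA, CACGTG and TGACGTGG can overlap at ACGT or ACGTG. A match is a description of letters in a window.

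The 8 Rab genes of secretory granules did not share a direction, with 4 higher and 4 lower on average. Their median within-genotype SD on the log2 scale was 0.48, against 0.16 for all Rab genes and 0.24 for all genes. Rab27a, which docks insulin granules through granuphilin, was at 4295, 5929 and 5549 in wild type against 6279, 4870.2 and 6351 in knockout libraries. The groups overlapped, with a log2 fold change of 0.15 (SE 0.16) and a 95% interval of −0.24 to 0.54. Rab3a, the neuronal and endocrine member that holds granules near release sites, was at 1721, 1770.0 and 1854 in wild type against 1217, 1409.8 and 2115 in knockout libraries. Knockout replicate 3 was the highest of all 6 and knockout replicates 1 and 2 the lowest, so the log2 fold change of −0.21 (SE 0.20) became −0.44 when knockout replicate 3 was left out and −0.044 when knockout replicate 1 was. The 11 beta cell markers together followed the same order in the knockout libraries, at 9.46%, 10.4% and 14.98% of reads. Their mean log2 levels of normalised reads, 14.52, 14.74 and 15.2, did too. Single markers did not all follow it, and within the knockouts Ins1 and Ins2 were lowest in replicate 2. The part of beta cell RNA in the Rab3a values was not tested.

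Rab3b, a further Rab3 protein of regulated secretion, was at 648, 1256 and 783 in wild type against 811, 1460.4 and 1038 in knockout libraries, and the log2 fold change was 0.32 (SE 0.30). Rab37, found on secretory vesicles of several cell types, was at 758, 1451 and 1466 in wild type against 1162, 2165 and 1505 in knockout libraries, and the log2 fold change was 0.41 (SE 0.32). Both genes were highest in knockout replicate 2 and lowest in wild type replicate 1. Knockout replicate 2 also held the highest share of the 7 alpha cell markers, 2.85% of reads against 0.731% to 1.63% in the other libraries, and wild type replicate 1 stood at 0.924%. That share was not tested as a part of these values. Without wild type replicate 1 the log2 fold change was 0.11 for Rab3b and 0.096 for Rab37, and without knockout replicate 2 it was 0.093 and 0.17. Rab3c, the sparsest of the Rab3 genes, was at 251, 153 and 147 in wild type against 145, 252 and 102 in knockout libraries (log2 fold change −0.20, SE 0.38), high in 1 library of each genotype.

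Rab26 and Rab27b are known for granules of exocrine cells, and both were low here. Rab26 was at 40.1, 14.5 and 30.8 in wild type against 109, 36.5 and 24.9 in knockout libraries, so 1 library, knockout replicate 1, was far above the others. That library had an acinar share of 17.2%, against 5.67%, 1.23% and 3.49% in the wild type libraries and 8.27% and 0.769% in the other knockout libraries. The log2 fold change of Rab26, 0.80 (SE 0.63), was 0.19 without knockout replicate 1 and 0.44 with the acinar level as a covariate. Of the exon bases of Rab26, 9.36% also belong to Traf7 on the same strand. Rab27b was at 95.2, 108 and 90.6 in wild type against 155, 97.4 and 51.8 in knockout libraries. It was highest in knockout replicate 1 and lowest in knockout replicate 3, the libraries with the most and the least acinar RNA. Wild type replicate 2 broke the order of the acinar shares, at 108 with a share of 1.23%, and the remaining libraries kept it. The log2 fold change of Rab27b was −0.084 (SE 0.40), and it was 0.050 by edgeR and 0.052 by DESeq2, so its sign depended on the tool. Rab3d is also known from acinar zymogen granules. It was highest in wild type replicate 3, at an acinar share of 3.49%. Within the knockouts it was highest in replicate 1, the library with the most acinar RNA. It was lowest there in replicate 2, and not in replicate 3, which had the least acinar RNA. With the acinar level as a covariate the log2 fold change of Rab3d was −0.33. The part of acinar RNA in the Rab26, Rab27b and Rab3d values was not tested beyond that covariate.

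**Figure D3:**
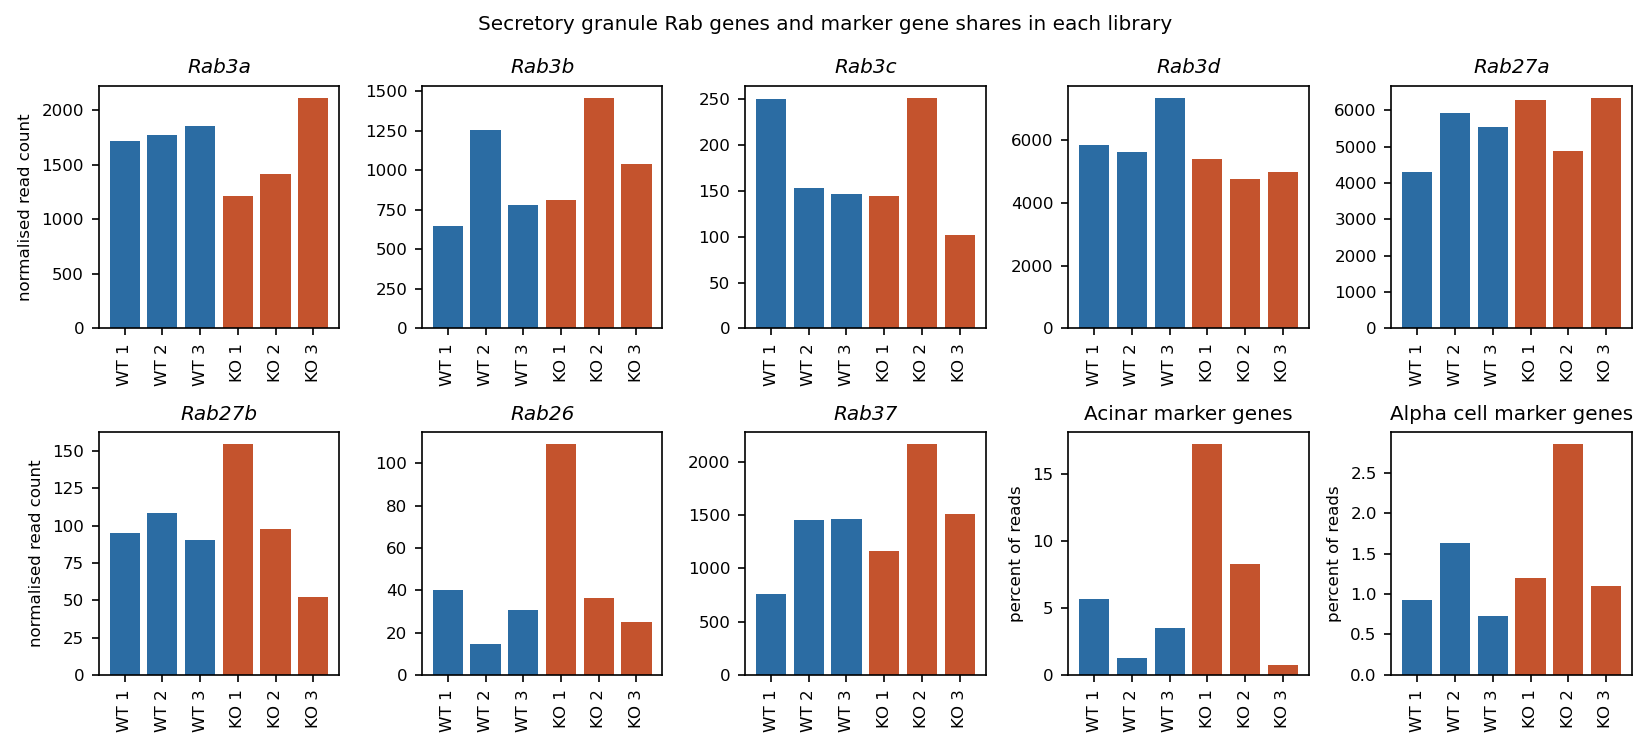
Normalised read counts of the 8 secretory granule Rab genes in each library (bars, from 0, wild type blue and knockout orange), with the percent of reads taken by acinar and by alpha cell marker genes in the last panels. Rab26 is highest in knockout replicate 1, which has the highest acinar share, and Rab3b and Rab37 are highest in knockout replicate 2, which has the highest alpha cell share.

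Rab genes of the ER and Golgi were lower on average in 12 of 15, with a median log2 fold change of −0.094 and 0 without overlap. Over all genes 50.6% were lower and 9.08% were without overlap. Among genes with a mean of at least 1000, 64.6% were lower. Rab1a, which brings ER-derived vesicles to the Golgi, was at 8600.0, 8951 and 8808 in wild type against 9085, 7817 and 8206 in knockout libraries, where knockout replicate 1 was the highest of all. Its close copy Rab1b was at 2528, 2775 and 2343 in wild type against 2264, 2340.0 and 2542 in knockout libraries. The log2 fold changes were −0.073 (SE 0.098) and −0.10 (SE 0.097), and the 95% intervals were −0.30 to 0.16 and −0.33 to 0.14. Rab2a, of the same early secretory route, was at 6991, 7391 and 7183 in wild type against 6454, 6691 and 7070.5 in knockout libraries (log2 fold change −0.094, SE 0.087), with knockout replicate 3 inside the wild type range. Rab6a, of retrograde traffic from the Golgi, was at 3219.8, 3735 and 3762 in wild type against 3556, 3967 and 3343 in knockout libraries (log2 fold change 0.020, SE 0.11). Its isoform gene Rab6b, best known from neurons, was at 1361, 1191 and 1460.5 in wild type against 1240.5, 1061 and 1060.5 in knockout libraries, and the log2 fold change was −0.25 (SE 0.12). Knockout replicate 1 of Rab6b lay above wild type replicate 2, so the genotypes overlapped. Rab18, which marks the ER and lipid droplets, was at 2933, 3417 and 3131 in wild type against 3879.8, 3043 and 3166 in knockout libraries (log2 fold change 0.084, SE 0.12) and was highest in knockout replicate 1.

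The remaining 9 genes of this group also overlapped between the genotypes. The Golgi gene Rab33b, an Atg16l1 partner in autophagy, had a log2 fold change of −0.016 (SE 0.091) with a 95% interval of −0.23 to 0.20. Rab39 and Rab39b had −0.31 (SE 0.25) and −0.13 (SE 0.10), and Rab43, of ER to Golgi transport, had −0.16 (SE 0.19). Rab30, a Golgi protein, had −0.21 (SE 0.45), Rab19 had −0.12 (SE 0.25) and Rab2b had −0.0085 (SE 0.27). Rab34 and Rab36, related proteins of the Golgi region, had −0.048 (SE 0.15) and 0.060 (SE 0.27). Of the exon bases of Rab43, 75.4% also belong to Gm45140 on the same strand, which held 0.9 to 8.6 normalised reads per library. Of those of Rab4b, 65.0% belong to Gm21983 on the same strand, and of those of Rab2b, 59.3% to Gm43766 on the opposite strand. Gm21983 and Gm43766 have no values in the deposited data. How shared reads were assigned is not given in the sources used here.

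The 9 genes of early endosomes held 3 of the 7 genes without overlap, Rab22a, Rab5b and Rab14, all lower in knockout libraries. Over all genes 5.22% were lower without overlap. All 3 had a mean of at least 1000, where 9.29% of such genes were lower without overlap. Rab5a, Rab5c and Rab21 also reached that mean, and their values overlapped between the genotypes. Over all 9 the median log2 fold change was −0.052. Rab5a, the best studied of the early endosome fusion factors, was at 2611, 2656 and 2857 in wild type against 2807, 2707 and 2640.2 in knockout libraries. Those values interleaved, and the log2 fold change was 0.0061 (SE 0.080) with a 95% interval of −0.18 to 0.20. Rab5c had a log2 fold change of −0.052 (SE 0.16). Rab21, which acts on integrin uptake, had 0.0095 (SE 0.12), and the rapid recycling genes Rab4a and Rab4b had −0.050 (SE 0.12) and 0.21 (SE 0.29). Rab31, of transport between the Golgi and endosomes, had −0.30 (SE 0.29) with wild type values of 950.3, 618 and 948 and knockout values of 503, 603 and 989. Like Rab3a, Rab31 was highest in knockout replicate 3 and lowest in knockout replicate 1.

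Among 10 genes of recycling endosomes and the plasma membrane, 7 were lower on average. Over all genes 50.6% were lower, and 64.6% of those with a mean of at least 1000. Rab8a and Rab25 were the ones without overlap, both lower, where 5.22% of all genes were lower without overlap. Rab11a, the central Rab of recycling endosomes, had the smallest ratio of the highest to the lowest library in the family, 1.07, at 1909.7, 1989 and 1853 in wild type against 1935, 1876 and 1921 in knockout libraries. Its log2 fold change was −0.0043 (SE 0.076), with a 95% interval of −0.19 to 0.18. Rab11b had −0.032 (SE 0.079) and Rab35, of rapid recycling, had 0.016 (SE 0.096). Rab10, which delivers glucose transporter vesicles in fat cells, was at 4163, 4165 and 3741 in wild type against 4036, 3681 and 3732 in knockout libraries (log2 fold change −0.076, SE 0.089), with knockout replicate 1 inside the wild type range. Rab8b, the close copy of Rab8a, was at 917, 934 and 774 in wild type against 1233, 1118 and 681 in knockout libraries (log2 fold change 0.17, SE 0.23). Knockout replicates 1 and 2 of Rab8b lay above every wild type library and knockout replicate 3 below every one. The low genes Rab13, Rab15 and Rab17 had −0.16 (SE 0.28), −0.55 (SE 0.37) and 0.24 (SE 0.50). Rab15, a recycling regulator, stood at 103, 54.2 and 52.8 in wild type against 52.8, 53.4 and 32.9 in knockout libraries, with 1 high wild type library.

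Of 9 genes of late endosomes and lysosomes, 6 were higher on average, with a median of 0.10. Over all genes 50.6% were lower, with a median of −0.0030. Rab7, which drives fusion with lysosomes, was at 7031, 7802 and 6978 in wild type against 7971, 6525 and 6503 in knockout libraries (log2 fold change −0.059, SE 0.12), highest in knockout replicate 1 and lower than all wild type libraries in knockout replicates 2 and 3. Rab9, of late endosome to Golgi transport, had 0.036 (SE 0.14), and Rab9b had −0.046 (SE 0.24). Rab12 had 0.10 (SE 0.21). Rab20 and Rab32, of phagosomes and lysosome-related organelles, had 0.46 (SE 0.33) and 0.28 (SE 0.38). Rab20 was at 137, 137 and 69.5 in wild type against 198, 128 and 135 in knockout libraries, with the top value in knockout replicate 1. In GENCODE M21, 25.6% of the exon bases of Rab20 also belong to E230013L22Rik on the opposite strand. E230013L22Rik was also highest in knockout replicate 1, at 41.7 normalised reads against 17.6 to 25.2 in the other libraries. Its part in the Rab20 values was not tested. The 8 macrophage markers, none at 0, had mean log2 levels of 6.21 to 7.06 in wild type and 5.98 to 7.21 in knockout libraries. They were highest in knockout replicate 2, and their part in Rab20 was not tested. The sparse genes Rab7b and Rab29 had 0.19 (SE 0.40) and −0.23 (SE 0.49). In the last group, the cilium-linked genes Rab23 and Rab28 had −0.17 (SE 0.13) and −0.031 (SE 0.098). Rab40b and Rab40c, which carry a SOCS box and join ubiquitin ligases, had −0.21 (SE 0.22) and 0.034 (SE 0.11).

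Levels were compared between genes as normalised reads per kb of merged exons in GENCODE M21, which may not be the annotation the authors counted on. Rab2a was highest at 3370.0 ± 93.8 (SD, n = 3) in wild type libraries, followed by Rab7 at 2786 ± 177 and Rab1a at 2313 ± 46.5, and each of these lay above the next without overlap. The same 3 genes led in knockout libraries, at 3159 ± 146, 2682 ± 322 and 2203 ± 171. Next came Rab3d at 1496 ± 226, Rab27a at 1355 ± 220.4, Rab5c at 1308 ± 192, Rab10 at 1145 ± 69.5 and Rab1b at 1122 ± 95.4. Neighbours in that run overlapped over the wild type libraries, so their order was not resolved. In knockout libraries Rab3d stood at 1203 ± 78.4, rank 6 where it had rank 4 in wild type, and Rab27a stood at 1504 ± 215, rank 4 where it had rank 5. Rab6a (958 ± 82.0) and Rab3a (800.3 ± 30.1) followed. At the other end Rab7b, Rab27b, Rab26 and Rab17 lay between 8.98 and 10.4 per kb in wild type libraries. The family thus spanned from 8.98 to 3370.0 per kb, and Rab2a, Rab7 and Rab1a alone made up 12.7%, 10.5% and 8.69% of the summed wild type level.

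**Figure D4:**
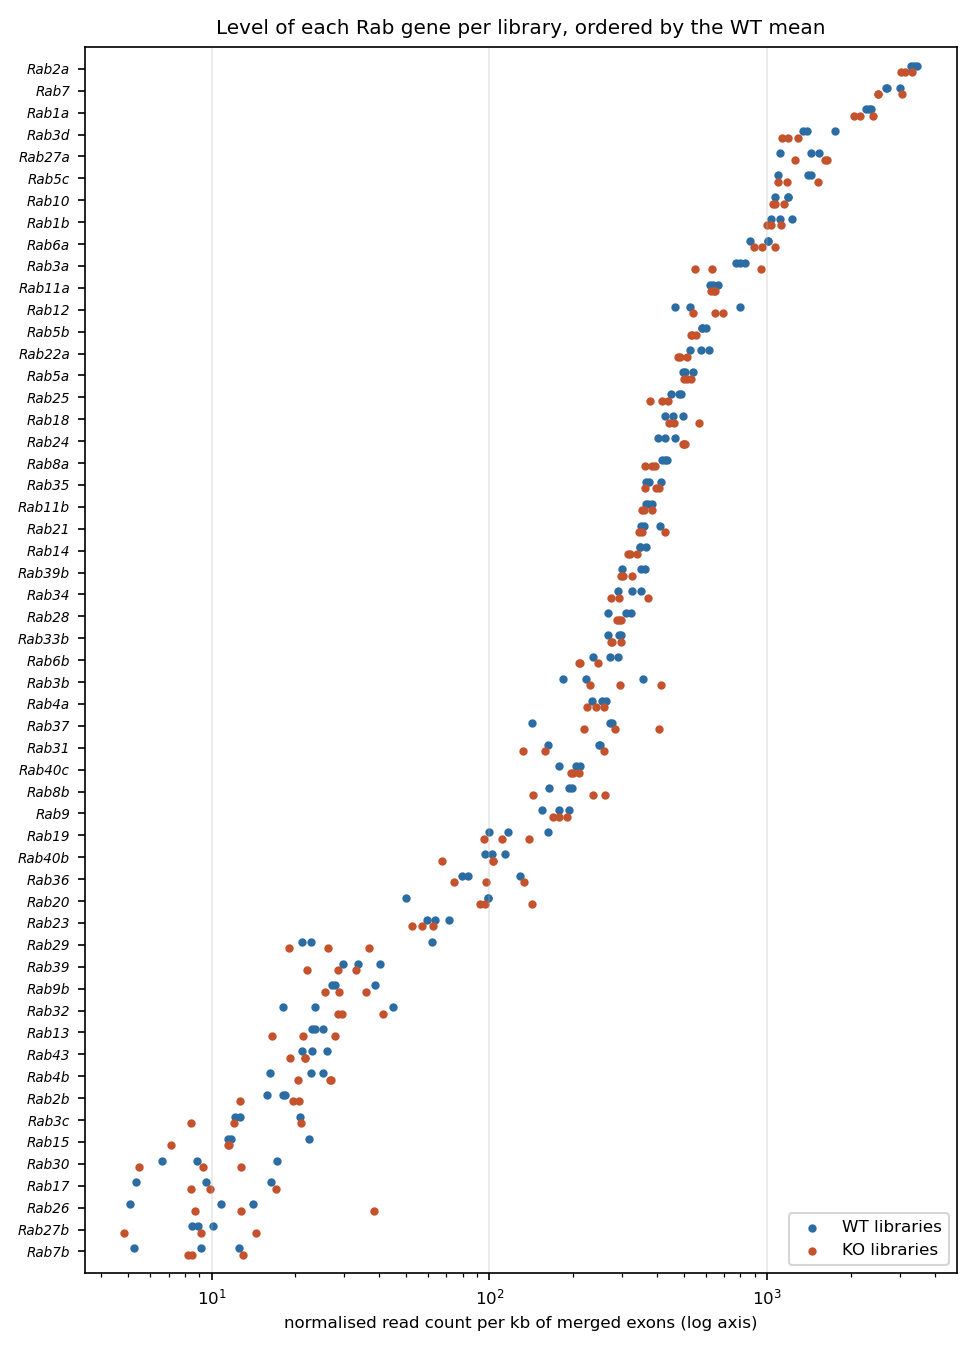
Normalised read count per kb of merged exons (horizontal log axis) of each Rab gene in every library, ordered by the wild type mean, with wild type in blue and knockout in orange. Rab2a, Rab7 and Rab1a lead in both genotypes, and the lowest 4 genes lie near 10 per kb.

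Close copies differed in level. Within the Rab3 genes, Rab3d made up 58.2% ± 4.35 (SD, n = 3) of the per-kb sum in wild type, against 54.1% ± 7.02 (SD, n = 3) in knockout libraries. Rab3a made up 31.3% ± 1.61 and 31.3% ± 6.66, Rab3b 9.95% ± 3.70 and 14.0% ± 4.22, and Rab3c 0.606% ± 0.239 and 0.625% ± 0.305. Those shares overlapped between the genotypes. Rab27a held 99.3% of the Rab27 sum in wild type and 99.4% in knockout libraries. Rab8b held 31.1%, 31.2% and 28.2% of the Rab8 sum in wild type libraries, against 40.3%, 39.4% and 26.8% in the knockouts, so 1 knockout library lay below and 2 above the wild type range. Rab6b held 21.8% ± 2.42 of the Rab6 sum in wild type and 18.7% ± 2.02 in knockout libraries, which overlapped. Rab5c was the main Rab5 gene with 54.1% and 54.2%. Near-identical stretches of such copies could share reads, and how the counting treated them is not given.

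Among genes with a mean of at least 1000, the median within-genotype SD on the log2 scale was 0.10 for Rab genes and 0.15 for all genes, and the median SE of a fold change was 0.098 and 0.12. The highest library exceeded the lowest 1.07-fold for Rab11a, 1.09-fold for Rab11b and Rab5a, and 7.52-fold for Rab26. Knockout replicate 1 was the lowest library for 14 of 55 Rab genes and the highest for 9. Wild type replicate 2 was the highest for 14 and the lowest for 4. Knockout replicate 3 was the lowest for 12.

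**Figure D5:**
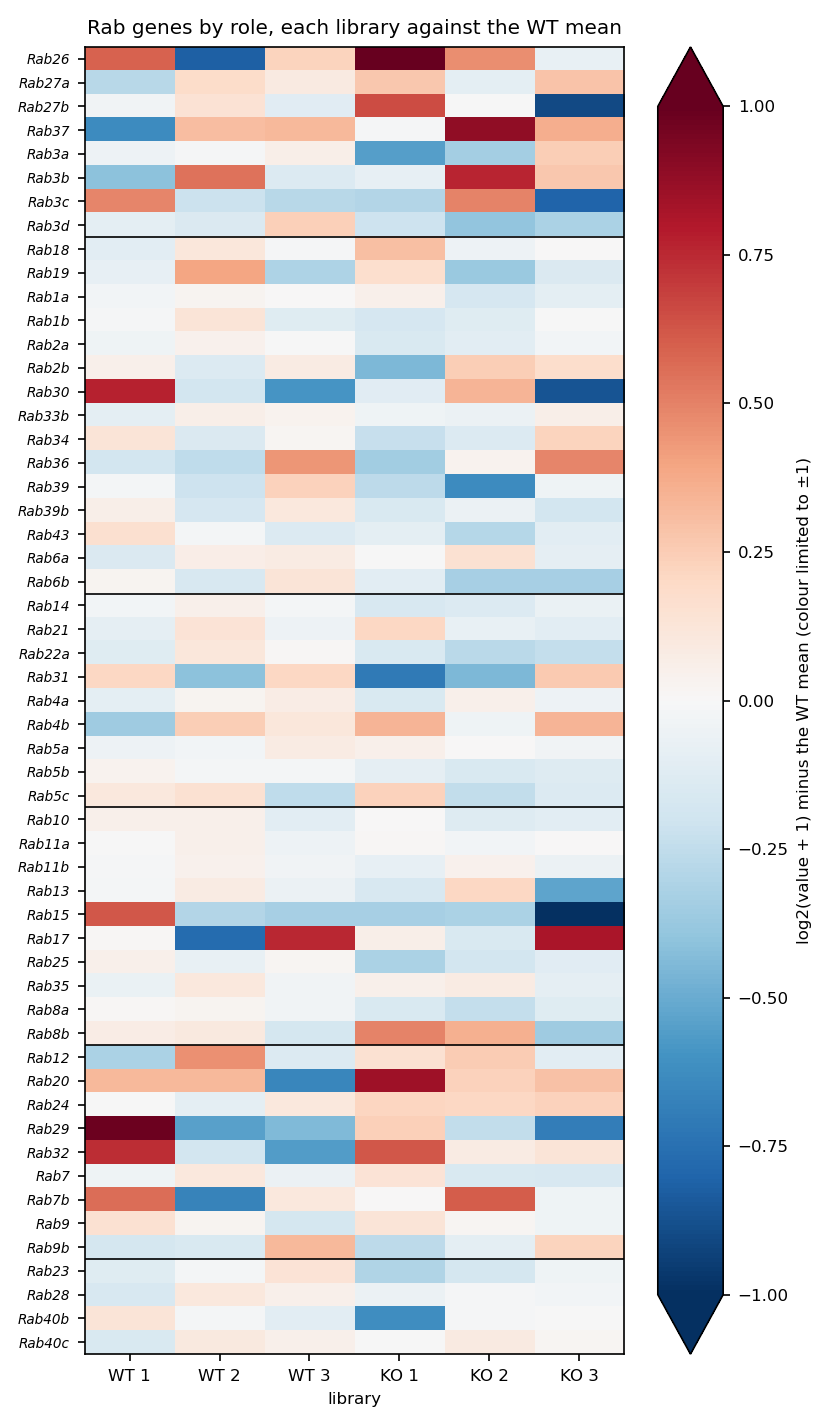
Each Rab gene (rows, grouped by role and separated by lines) in each library (columns), as log2(value + 1) minus the wild type mean, with colour limited to ±1. Abundant genes such as Rab11a and Rab5a are pale throughout, and deep colours sit mostly in sparse genes and in granule genes such as Rab26, Rab37 and Rab3b.

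Partners of the Rab proteins were read from lists of known regulators and effectors, and 0 of their genes passed the adjusted threshold. At an unadjusted p under 0.05 there was 1 gene each among the TRAPP subunits (lower), the GTPase-activating proteins (lower) and the other effectors (higher), among 14, 40 and 35 genes tested, where 3.08% of all genes passed. Genes of TRAPP subunits, which form Rab exchange factors, were lower on average in 12 of 14, with a median log2 fold change of −0.11. Of these 14 genes, 3 were without overlap, all lower. Over all genes 50.6% were lower, 5.22% were lower without overlap and 3.85% were higher without overlap. Among genes with a mean of at least 1000, 64.6% were lower and 9.29% were lower without overlap. The other partner lists also held genes without overlap. Lower without overlap were 2 of 35 exchange factors, 3 of 40 GTPase-activating proteins, 2 of 7 anchoring genes and 4 of 35 other effectors. The last 2 of these lists also held 1 gene each that was higher without overlap. The 14 effectors of Rab3 and Rab27 held 0. Trappc10 was at 3063, 2902 and 3051 in wild type against 2233, 2526 and 2828 in knockout libraries, and the log2 fold change was −0.26 (SE 0.11). Trappc8 had −0.18 (SE 0.083) and Trappc1 had −0.26 (SE 0.15). The median level of the 14 subunit genes was 899.7 normalised reads, near that of the Rab genes at 943. The exchange factors outside TRAPP were split, 16 higher and 19 lower with a median of −0.0086. Those of smallest p were Als2cl (log2 fold change 0.54, SE 0.24), Dennd6b (log2 fold change 0.33, SE 0.17) and Rabif (log2 fold change −0.20, SE 0.10).

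GTPase-activating proteins were lower on average in 26 of 40 genes, with a median of −0.053. Over all genes 50.6% were lower, and 64.6% of those with a mean of at least 1000. The GTPase-activating proteins of smallest p were Tbc1d8b (log2 fold change −0.26, SE 0.10), Rabgap1l (log2 fold change −0.22, SE 0.095) and Tbc1d13 (log2 fold change −0.19, SE 0.11). Of the 7 genes for lipid anchoring and extraction from membranes, 4 were lower. Rabac1, a Golgi protein that helps to release Rabs from GDI, was at 3371, 3443 and 3535 in wild type against 3148, 3120.3 and 3230.2 in knockout libraries, without overlap (log2 fold change −0.12, SE 0.075). Chml, an escort protein for the anchoring enzyme, had every knockout value higher (log2 fold change 0.19, SE 0.12), and Rabggtb, a subunit of that enzyme, had −0.10 (SE 0.087). Effectors of Rab3 and Rab27 divided evenly, 7 higher and 7 lower. Sytl4, which encodes granuphilin, was at 6932, 7858 and 7592 in wild type against 6175, 4707 and 8372 in knockout libraries (log2 fold change −0.25, SE 0.20), with knockout replicate 3 the highest of all. Myrip, which links Rab27a granules to myosin, had −0.20 (SE 0.19), and Rph3al, also called Noc2, had 0.19 (SE 0.18). Of 35 other effectors, 23 were lower, with a median of −0.082. The shares were 50.6% over all genes and 64.6% over those with a mean of at least 1000. Appl2, a Rab5 effector on early endosomes, was at 1122, 1123 and 1522 in wild type against 1872, 1775 and 1583 in knockout libraries, higher in each of the 3 (log2 fold change 0.48, SE 0.14). The Golgi tethers Golga2 and Golga4, which bind Rab1 and Rab6 family members, had −0.17 (SE 0.083) and −0.24 (SE 0.13). None of the partner genes named here passed the adjustment with limma (adjusted p = 0.993), and by edgeR and DESeq2 the lowest adjusted p among the single genes followed, these and the Rab genes, was 0.732.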

How the data were processed

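Islet RNA was sequenced in 6 libraries, and the deposited table holds 1 value per gene and library. The submitters' processing notes name HISAT2 as the aligner. Counting tool, build, annotation and strand setting: not given in the sources used here. The deposited signal values behave as read counts scaled by the authors with 1 factor per library, since 100% were whole multiples of a step of 0.879 to 1.23, within 0.01 reads. The steps of wild type replicate 1 and knockout replicate 3, 1.0024 and 0.99668, lie too close to 1 for an independent test of whole reads, so the count-based fits rest less firmly on these libraries.

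A gene was kept if 3 or more libraries reached a value of 10. The genotype difference in log2(value + 1) was fitted over all 16042 genes by limma 3.58.1 (R 4.3.3) with a mean-variance trend. Tests were two-sided, adjusted by Benjamini-Hochberg at 0.05, with intervals at 95%. EdgeR 4.0.16 and DESeq2 1.42.0 ran on the reads recovered from all 6 libraries as alternatives. The fits were tested on simulated counts, where DESeq2 called more unchanged genes than limma and edgeR did. DESeq2 failed the limit on such calls first set for all the tools. The limit was then applied to limma and edgeR only, and DESeq2 was kept as an alternative. No library was a duplicate of another of its genotype (chi-square of 57.9 to 329 per degree of freedom).

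The members and lists were chosen with earlier results of these data known, and so were the 7 motifs, the promoters shown and the check for overlapping genes. The ER stress response element was searched as CCAAT, 9 free bases and CCACG. Every Rab gene is named. Per-library values are given for 18 Rab genes chosen for their roles, for the 8 of smallest p and for those without overlap. They are also given for a few genes chosen after their values were seen (Rab8b, Rab15, Rab20, Rab31, Prelid1). E230013L22Rik was chosen in the same way, and only its highest value and the range of the others are given. Of each partner list the 3 genes of smallest p are named. In GENCODE M21, 12 Rab genes share exon bases with another gene in the table.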

Additional observations from a re-analysis of the deposited data

How the results depend on the processing

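The number of Rab genes called stayed at 0 under a pseudocount of 10, no filter, a minimum mean of 50, TMM scaling, equal library totals, edgeR, DESeq2 (9 Rab genes without an adjusted p), the acinar level as a covariate, a replicate block and each library left out, and the lowest adjusted p among Rab genes over these was 0.703. The median log2 fold change was negative throughout, −0.12 with equal library totals, where the median of all genes was −0.074, and −0.053 to −0.023 with 1 library left out. The count of lower genes was 32 to 42. The count without overlap, with libraries left out an alternative chosen after seeing the data, was 10 to 14 against 7 with all libraries, as fewer samples separate more easily. Of all 55 Rab genes, 26 changed sign in at least 1 alternative, a count added after seeing the data. Among the 24 Rab genes and 18 partners followed singly, 6 did. With equal library totals Rab6a was −0.052 and Rab5a −0.065. By edgeR Rab27b was 0.050, and by DESeq2 it was 0.052 and Rab11a 0.0036. With the acinar covariate Rab5a was −0.0063 and Rab11a 0.00082. With 1 library left out, the range was −0.020 to 0.045 for Rab5a, −0.029 to 0.022 for Rab11a, −0.053 to 0.076 for Rab6a, −0.45 to 0.32 for Rab27b, −0.55 to 0.10 for Rab3c and −0.023 to 0.15 for Rab18. The cause was not tested. Deviations of same-numbered libraries of the genotypes had correlations of 0.43, 0.0037 and 0.365, against −0.413 to 0.199 for different numbers. These values do not settle whether the numbers are pairs. The main fit did not take them as pairs, and a replicate block was fitted as an alternative. With the replicate block, the median stayed at −0.050, 0 Rab genes were called and 3 had an unadjusted p under 0.05 (5.45%, against 5.39% of all genes), where 1 did without it (1.82%, against 3.08%).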
